A study of Coturnix japonica and Phalacrocorax auritus with 29 samples.

Results

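CYP3A cytochromes P450 were measured in embryonic bird livers as the features whose protein name begins with cytochrome P450 3A in 2 tables of RNA-seq read counts. The table of the Japanese quail (JQ, Coturnix japonica) held 12 such names among 22845, and the table of the double-crested cormorant (DCCO) held 13 among 21547. The names added up to 14, of which 11 stood in both tables. A minimum on reads left 4 names for testing among 14927 features in JQ, namely CYP3A9-like, CYP3A37 (listed as cytochrome_p450_3a37), CYP3A8 (cytochrome_p450_3a8) and CYP3A12-like. In DCCO it left 6 among 14579, namely CYP3A9-like, CYP3A9, CYP3A37, CYP3A8, CYP3A29-like and CYP3A24-like.

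CYP3A enzymes are heme-containing monooxygenases of the endoplasmic reticulum, and in the liver of vertebrates they oxidise steroids and many drugs and other foreign compounds. They take electrons from NADPH-cytochrome P450 reductase, partly through cytochrome b5, and their genes are classic targets of the xenobiotic-sensing nuclear receptors. CYP3A37 was named in the chicken, where drugs of the phenobarbital type induce it, whereas the numbers of CYP3A8, CYP3A9, CYP3A12 and CYP3A29 were first given to enzymes of macaque, rat, dog and pig. Such a name therefore gives the nearest protein in the database used for counting and not an established bird gene.

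The study asked how JQ and DCCO embryos differ in sensitivity to chlorpyrifos, an organophosphate insecticide. Eggs of either species received chlorpyrifos, or a DMSO control, in the air cell before incubation at 37 °C and 60% humidity. The labels list 0.4, 4 and 40 µg per g egg as nominal doses without assigning them to the group names, and a high dose picked per species to keep embryo deaths under 20%. Each library held the liver RNA of 1 embryo. The JQ embryos were 5 at the high dose, 5 at the medium dose and 5 controls, all labelled day 9 of development except control replicate 5, which is labelled day 16. The DCCO embryos were 5 at the high dose, 5 at the medium dose and 4 controls, all labelled day 16. No strain, sex or genotype was given, and the controls of both species were injected too, with DMSO.

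Totals per library ran between 11548222 and 27778954 reads in JQ and between 9890108 and 21976904 in DCCO. All 8 hepatocyte markers had reads in every library, and albumin alone stood between 63476 and 193717 CPM (counts scaled to library size) in JQ and between 39760 and 88996 in DCCO. One JQ library stood apart: the kidney markers summed to 1997 CPM in high dose replicate 1, against 30.2 to 100.4 CPM in the other 14. In DCCO the column names gave 1 prefix to all 4 controls and another to all exposed livers, so whatever that prefix stands for cannot be told apart from exposure. These are bulk livers, in which fewer cells of a type and less RNA per cell cannot be told apart. CPM values below are scaled by trimmed mean of M-values (TMM) factors and not by protein length, which the tables do not give, so levels of different features are not ranked against each other.

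In JQ livers 3 of the 4 tested CYP3A features rose at the high dose, by 70.0-fold to 81.3-fold, and the fourth, CYP3A12-like, was not called. Over all tested features 3.56% were called at this dose, and 2.12% were called upward. The 81.3-fold value is that of CYP3A8, which had 17 reads over all controls. It entered the test through its high dose reads, so its call is not independent of that entry. CYP3A9-like, which held most CYP3A reads of the high dose livers, had 6.67, 4.57, 14.5, 7.67 and 22.3 CPM in control replicates 1 to 5. It had 13.3, 25.1, 8.94, 50.0 and 4.45 CPM in the medium dose replicates and 533, 277, 1154, 902 and 1039 CPM in the high dose replicates. The lowest high dose liver was thus above every medium dose and control liver, while medium dose and control values overlapped. The means were 781 ± 366 CPM at the high dose, against 11.2 ± 7.28 CPM in controls (SD, n = 5 each). The log2 fold change was 6.13 ± 0.71 (SE), and edgeR (quasi-likelihood test, Benjamini-Hochberg) gave an adjusted p of 0.000162.

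CYP3A37, the phenobarbital-inducible enzyme first described in the chicken, also rose at the high dose. It had 1.32, 0.773, 1.51, 1.15 and 3.84 CPM in JQ controls, 2.72, 3.36, 1.38, 8.22 and 0.611 CPM at the medium dose, and 87.6, 46.0, 185, 136 and 156 CPM at the high dose. Again the high dose livers stood clear of the other 10, with replicate 2 the lowest among them. It averaged 122 ± 55.3 CPM at the high dose, against 1.72 ± 1.22 CPM in controls (SD, n = 5 each). Its log2 fold change was 6.13 ± 0.63 (SE) with an edgeR adjusted p of 6.05e-05.

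CYP3A8, named for a macaque drug-metabolising enzyme, was nearly absent without the high dose. Controls gave 0.227, 0, 0.138, 0.128 and 0.439 CPM, medium dose livers 0.366, 0.761, 0, 1.09 and 0 CPM, and high dose livers 10.9, 4.79, 25.7, 19.1 and 21.3 CPM. The high dose livers did not overlap with the others, which did overlap. The 17 reads of all controls and 49 of all medium dose livers stood beside 1891 at the high dose, so this feature entered the test through its high dose reads. The log2 fold change was 6.34 ± 0.77 (SE) with an edgeR adjusted p of 0.000246.

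CYP3A12-like, named for a dog liver enzyme, took most of the CYP3A reads of control JQ livers and was not called at the high dose. It had 75.1, 70.7, 90.4, 109 and 133 CPM in controls, 54.0, 124, 88.2, 60.9 and 92.5 CPM at the medium dose, and 163, 81.1, 82.9, 89.9 and 98.4 CPM at the high dose. The 3 groups overlapped, and high dose replicate 1 was the only high dose liver above every control. The means were 103 ± 34.0 CPM at the high dose, against 95.8 ± 25.9 CPM in controls (SD, n = 5 each). The log2 fold change of 0.10 had a 95% interval of -0.43 to 0.64 and an edgeR adjusted p of 0.894. High dose replicate 1 is the library with kidney markers, among them the phosphate carrier SLC34A1 at 1208 CPM. SLC34A1 also stood at 11.3 to 32.4 CPM in the other high dose livers, against 1.77 to 5.35 CPM in controls. The kidney markers LRP2 and CUBN did not follow it there. LRP2 had 18.8 to 28.8 CPM in those livers and 12.1 to 48.1 CPM in controls, and CUBN 0.339 to 1.01 and 0.110 to 1.24 CPM. The sum of the kidney markers was 32.0 to 56.8 CPM in those livers and 46.9 to 100.4 CPM in controls. The part of the kidney markers in the CYP3A12-like value of replicate 1 was not tested. Without high dose replicate 1 the CYP3A12-like log2 fold change was -0.12.

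**Figure D1:**
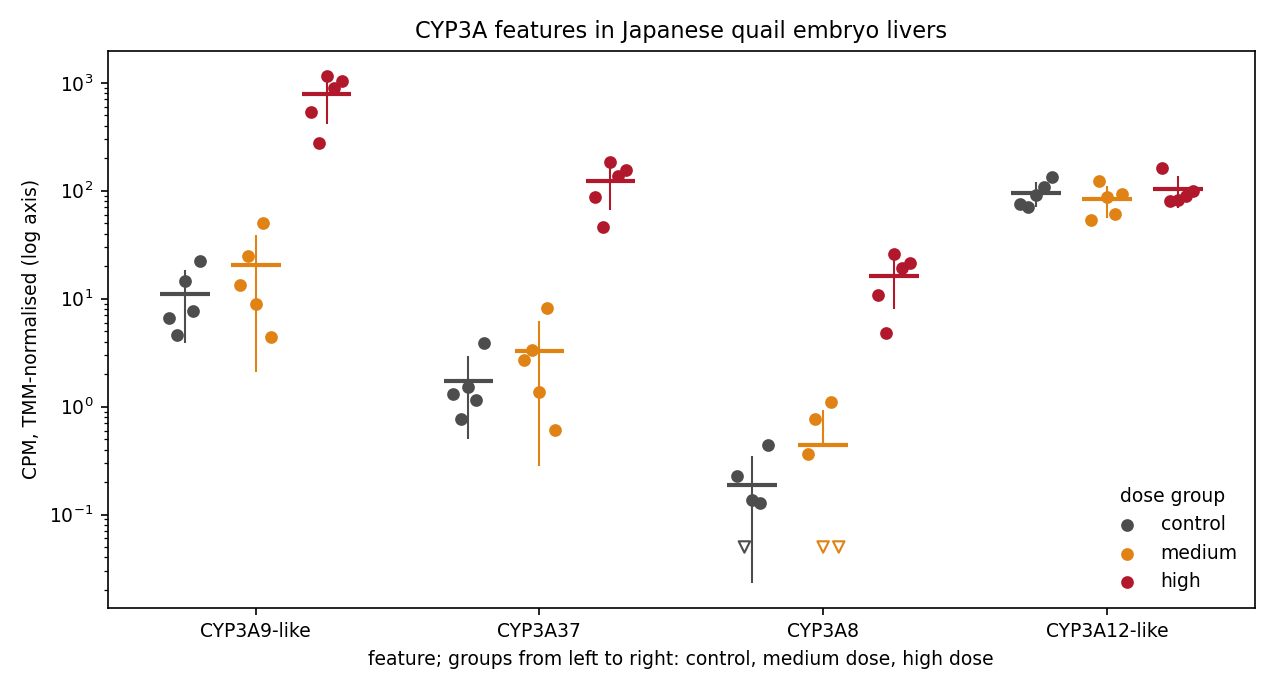
Levels of the 4 tested CYP3A features in each JQ liver (TMM-normalised CPM, log axis), with control, medium and high dose groups side by side; points are livers, horizontal lines group means, vertical lines 1 SD (only upward where the lower end would fall below 0), and open triangles livers with no read, drawn at 0.05 CPM. The high dose livers lie above all others for CYP3A9-like, CYP3A37 and CYP3A8. For CYP3A12-like they lie among the others, except for high dose replicate 1, which is the highest of all.

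The 3 features that rose were above every control in 5 of 5 high dose livers, which 2.7% of all tested features were. For CYP3A8, which entered the test through its high dose reads, this is not independent of that entry. Control replicate 5, labelled day 16, was the highest control for all 4 features. Without it and high dose replicate 1, a fit chosen after seeing the data, the log2 fold changes were 6.66 for CYP3A9-like, 6.77 for CYP3A37 and 7.01 for CYP3A8. The hepatocyte markers summed to 102326 to 187903 CPM in high dose livers and 202779 to 248046 CPM in controls, and their sum was lower in every high dose liver than in every control. Most of this sum was albumin, with 63476 to 129879 CPM in high dose livers and 136469 to 182556 CPM in controls. HNF4A, another of these markers, was not lower, with 32.1 to 76.0 CPM in high dose livers and 23.6 to 44.8 CPM in controls. The bile duct markers summed to 195 to 323 CPM in high dose livers and 132 to 222 CPM in controls. The part of either shift in the CYP3A result was not tested.

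At the medium dose no CYP3A feature of JQ passed the test, nor did any other feature, which makes 0% called of 14927. The log2 fold changes against control were 0.88 for CYP3A9-like, 0.95 for CYP3A37, 1.29 for CYP3A8 and -0.19 for CYP3A12-like, each with an edgeR adjusted p of 0.999. None of the 4 had an unadjusted p under 0.05, against 4.33% of all tested features, and DESeq2 and limma voom called none of the 4 either. The 95% intervals of the first 3 features were -0.38 to 2.14, -0.32 to 2.23 and -0.64 to 3.22, so sizeable rises are not excluded. Medium dose replicate 4 was the highest of its group for these features, and without it their values were 0.23, 0.29 and 0.72. Those were the lowest values over the omissions of a single library, and the highest were 1.30, 1.49 and 1.84. The 5 gut markers in the table summed to 371 to 1179 CPM in medium dose livers and 153 to 320 CPM in controls. Nearly all of it was the apolipoprotein APOA4, with 359 to 1139 CPM in medium dose livers and 147 to 315 CPM in controls. Its part in these values was not tested.

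Set against the medium dose, the high dose gave log2 fold changes of 5.25 ± 0.68 (SE) for CYP3A9-like, 5.18 ± 0.59 for CYP3A37 and 5.06 ± 0.68 for CYP3A8. The edgeR adjusted p were 0.000569, 0.000198 and 0.000795, with 5 of 5 high dose livers above every medium dose liver, as for 1.78% of tested features. CYP3A8 had 49 reads over all medium dose livers, and its entry into the test through high dose reads limits its values here too. In this comparison 1.89% of the tested features were called and 1.38% were called upward. CYP3A12-like differed by 0.30, with a 95% interval of -0.24 to 0.83. Without medium dose replicate 4 the 3 called values were 5.90, 5.84 and 5.62, and limma voom gave 5.89 for CYP3A8. In order of level, then, the high dose stood first for 3 features. Medium dose and control did not differ beyond their spread, with wide 95% intervals for that difference.

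Summed over all 12 names, the JQ livers had 83.7, 76.3, 107, 118 and 160 CPM in controls, 70.4, 153, 98.8, 121 and 97.7 CPM at the medium dose, and 795, 410, 1448, 1148 and 1316 CPM at the high dose. The sum does not depend on how reads were divided among these 12 names, and the high dose livers were again apart from the other 10. CYP3A12-like made up 12.3 ± 7.23% of the CYP3A reads at the high dose and 88.6 ± 4.36% in controls (SD, n = 5 each). The share of CYP3A9-like was 74.4 ± 6.43% at the high dose and 9.60 ± 3.88% in controls.

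**Figure D2:**
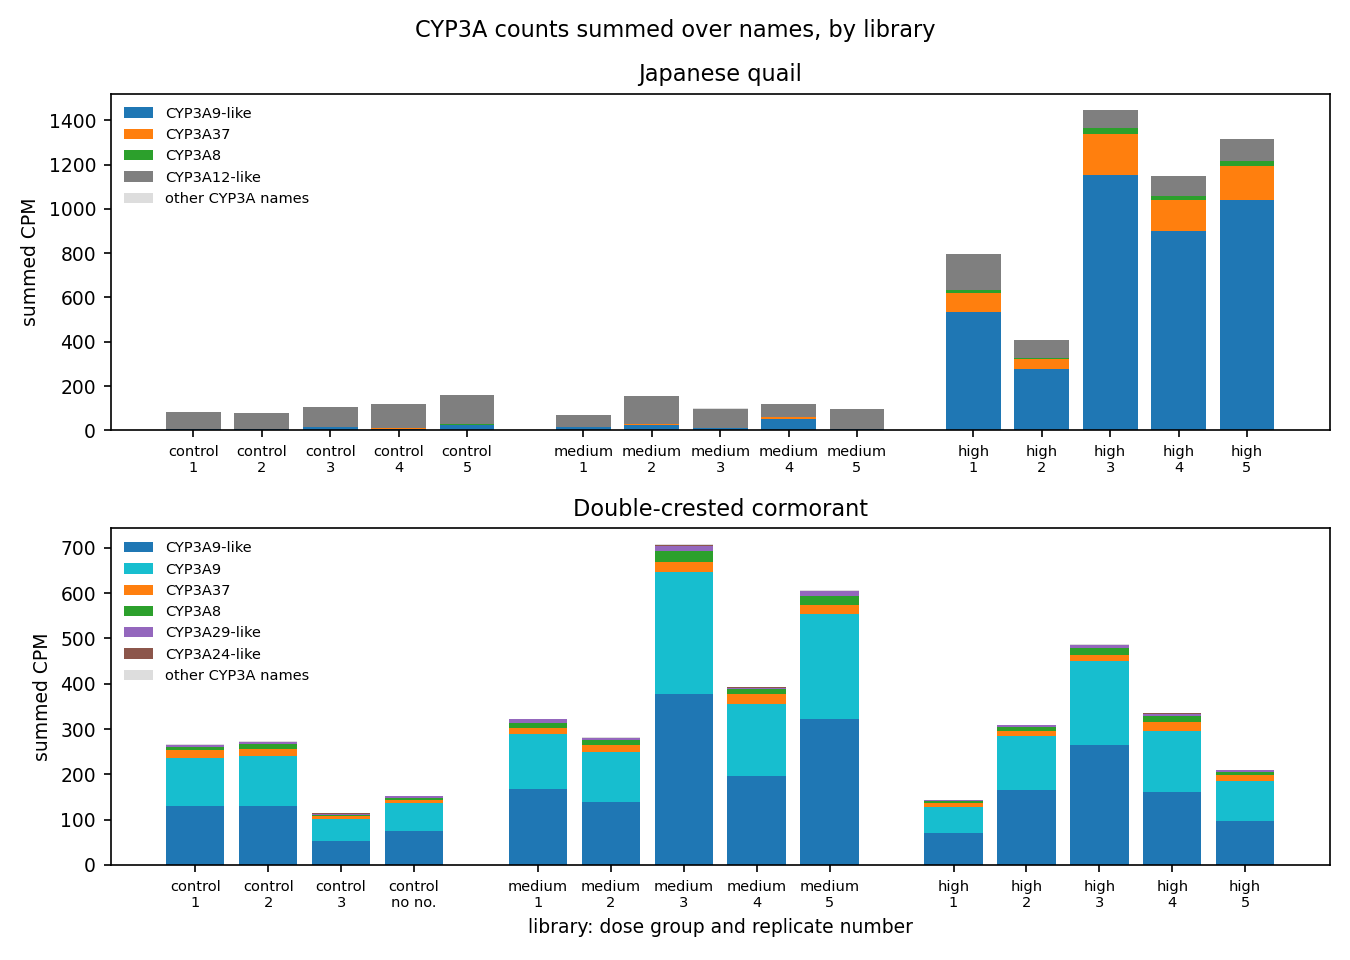
CYP3A CPM summed over all names in each liver, JQ above and DCCO below, with the bars stacked by feature and the groups in the order control, medium, high. CYP3A12-like fills most of the JQ control bars, CYP3A9-like most of the JQ high dose bars, and CYP3A9-like and CYP3A9 together most of every DCCO bar.

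The 3 features that rose in JQ kept similar proportions to each other. CYP3A9-like had between 4.88 and 9.59 reads for each CYP3A37 read over all 15 JQ livers, with a median of 6.24 at the high dose and 5.92 in controls. CYP3A37 had between 4.42 and 11 reads for each CYP3A8 read in the 12 livers with a CYP3A8 read. By this kind of counting, reads of near-identical proteins can be divided among similar names, so whether these are separate genes or 1 transcript shared out was not tested. Against CYP3A12-like, in contrast, CYP3A9-like moved by 6.10 on the log2 scale between high dose and control livers. For CYP3A37 against CYP3A12-like the log2 difference was 6.13. At the medium dose the corresponding differences from control were 0.84 and 0.86. These ratios were chosen after the values of the features were seen and are given as a description, with no test.

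The 8 JQ names too low to test held 105 reads in all at the high dose, 20 at the medium dose and 18 in controls. CYP3A9 made up 34 of the high dose reads, 20 of them in replicate 4, against 2 reads in controls. CYP3A8-like had 26 reads at the high dose, between 4 and 7 in each liver, against 2 in controls, and CYP3A40-like had 14 against 0. CYP3A80 had 14 reads at the high dose and 9 in controls. With no minimum on reads, CYP3A8-like was also called, at an edgeR adjusted p of 0.0465, whereas CYP3A40-like and CYP3A9 stood at 0.0566 and 0.185. The other 4 untested names, CYP3A12, CYP3A24-like, CYP3A29 and CYP3A29-like, had at most 11 reads in any group.

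Likeness of pattern was measured over the 15 JQ livers as the root mean square difference of log2 CPM, each feature centred on its control mean. The nearest features to CYP3A37 among all tested were CYP3A9-like at 0.22 and CYP3A8 at 0.45. Next came UGT1-6-like at 0.95 and UGT1-6 at 1.07, both named for glucuronosyltransferases, then CYP2C19 at 1.30, TMEM139 at 1.33 and ALAS1 at 1.34. TMEM139 averaged 0.184 CPM in controls and 0.342 CPM at the medium dose, against 0.901 to 31.2 CPM in the high dose livers. Like CYP3A8, it entered the test through its high dose reads, so its likeness is not independent of that entry. For CYP3A9-like the features nearest outside CYP3A included UGT1-6-like, UGT1-6, CYP2C19 and CYP2C18, at 1.06 to 1.34. CYP3A8 had UGT1-6-like, UGT1-6, CYP2C19, CYP2C18 and ALAS1, at 1.15 to 1.32. CYP3A12-like was nearest to a potassium channel feature (KCNK16-like), a hydroxyacylglutathione hydrolase-like feature, an uncharacterised feature, N-acetyltransferase camello and TLE2, at 0.24 to 0.29. From CYP3A37, CYP3A12-like stood at 3.65, rank 6236 among all tested features.

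**Figure D3:**
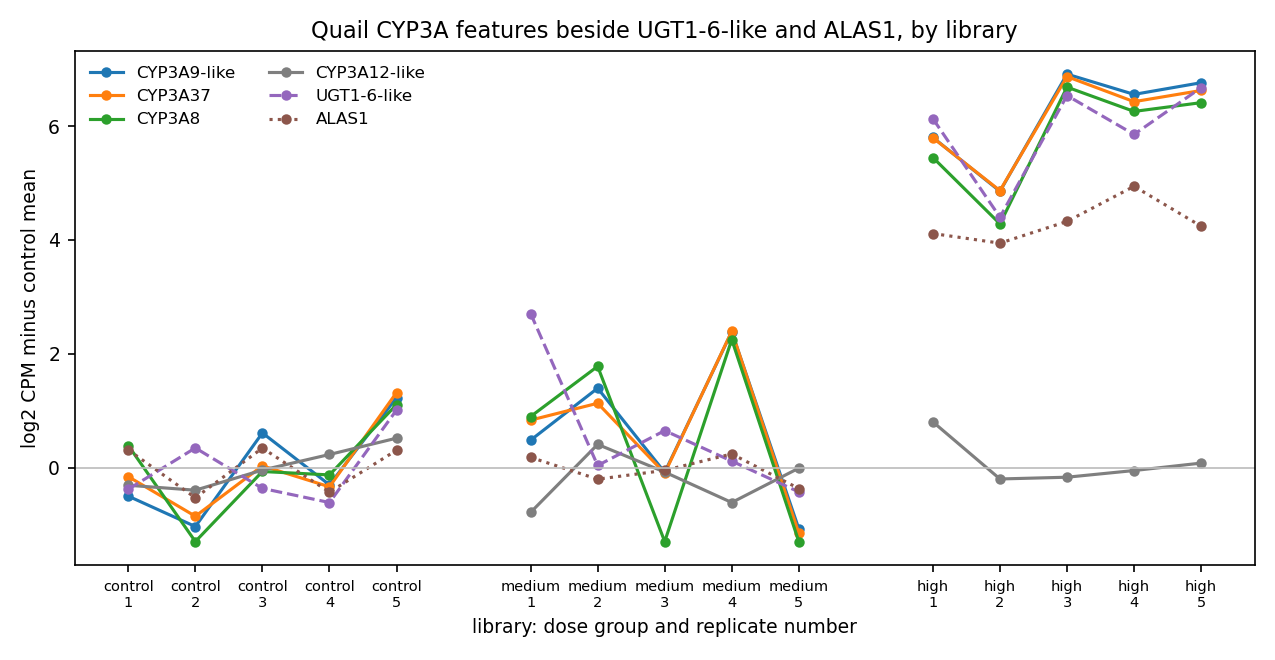
Log2 CPM minus the control mean for the 4 tested CYP3A features, UGT1-6-like and ALAS1 in each of the 15 JQ livers; lines only join the values of a feature within a group. CYP3A9-like, CYP3A37 and CYP3A8 are all above 4 in every high dose liver, with CYP3A8 the lowest of the 3 there, UGT1-6-like is near them at the high dose, ALAS1 is lower there, and CYP3A12-like stays near 0. The values drawn carry a prior count of 2, which shrinks changes of features with few reads. The fitted log2 fold change of CYP3A8, 6.34, was the largest of the 3.

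P450 enzymes depend on heme and electrons, and of a list of 17 tested genes of heme turnover and electron supply 5 rose at the high dose in JQ and none fell. Over all tested features 2.12% were called upward in this comparison. ALAS1, the first enzyme of heme synthesis, had 2298 ± 674 CPM at the high dose, against 116 ± 32.8 CPM in controls (SD, n = 5 each), a log2 fold change of 4.30. PGRMC1, a heme-binding partner of P450 enzymes, rose by 1.23, cytochrome b5 (CYB5A) by 1.38 and the reductase POR by 0.59. The edgeR adjusted p of these 4 were at most 0.00956. The fifth was HMOX1, the heme oxygenase that breaks heme down, which rose by 0.58 with an edgeR adjusted p of 0.0407. This adjusted p is near the threshold, and the HMOX1 call was not followed over the other fits. The median log2 fold change was 0.22 over the list and 0.01 over all tested features.

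Of 52 tested P450 features outside CYP3A, 21 rose and none fell at the high dose in JQ, against 2.12% upward over all tested features. The median log2 fold change of the 52 was 0.39. The smallest p belonged to 4 CYP2 features. CYP2H1, CYP2H2 and CYP2H1-like, the phenobarbital-inducible P450s known from chicken, rose by 11.02, 10.44 and 12.12 on the log2 scale. CYP2C23B had 47.2 ± 14.5 CPM at the high dose, against 0.0347 ± 0.0326 CPM in controls (SD, n = 5 each), a control level of 3 reads in all. With a medium dose log2 fold change of only 0.74, CYP2C23B entered the test through its high dose reads. The edgeR adjusted p of these 4 were at most 4.93e-07.

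Among 14 tested genes of conjugation and efflux, 7 rose and none fell at the high dose in JQ, against 2.12% upward over all tested features. UGDH, which makes the glucuronic acid donor, rose by 2.15, UGT1A1, which conjugates bilirubin, by 1.60, and the efflux pumps ABCB4 and ABCB1 by 1.53 and 1.28, with edgeR adjusted p of at most 0.00516. The list's median log2 fold change was 0.84. Of 19 tested nuclear receptors and liver transcription factors, none rose and 2 fell, against 3.56% called in either direction over all tested features. FOXA2 fell by 0.49 and CEBPA by 0.56 on the log2 scale, with edgeR adjusted p of 0.0422 and 0.0443. Leaving out a single library ended the FOXA2 call for 11 of the 15 and the CEBPA call for 9, high dose replicate 1 among them both times. The bile acid receptor NR1H4 was at -0.54 and HNF4A at 0.74, neither called. NR1I3, a xenobiotic receptor, had 5.81 ± 1.41 CPM at the high dose, against 6.74 ± 1.85 CPM in controls (SD, n = 5 each), with an edgeR adjusted p of 0.806. AHR, the receptor for dioxin-like compounds, was at -0.36 on the log2 scale with an edgeR adjusted p of 0.423. The largest log2 fold change of the 19 against control was 1.04, not called. Set against the medium dose, 1 of the 19 was called upward and 0 downward, beside 1.38% called upward over all tested features. At the medium dose in JQ edgeR called no member of the 4 lists, and 0% of all tested features. In the order of the lists above, 0 of 17, 4 of 52, 0 of 14 and 0 of 19 were upward at an unadjusted edgeR p under 0.05. Downward there were 0, 2, 1 and 3. Over all tested features these shares were 2.20% upward and 2.12% downward, so the counts above 0 are larger shares.

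In DCCO livers no CYP3A feature passed the test at either dose, and the features were measurable already in controls. CYP3A9-like had 131, 129 and 53.9 CPM in control replicates 1 to 3 and 74.7 CPM in the control without a number. It had 167, 140, 377, 197 and 322 CPM at the medium dose and 70.5, 165, 266, 160 and 98.0 CPM at the high dose. Every medium dose liver was above every control, whereas the high dose livers overlapped with both groups. CYP3A9, named for a rat enzyme, had 106, 111, 46.9 and 62.1 CPM in controls, 123, 109, 269, 159 and 233 CPM at the medium dose, and 57.7, 120, 186, 135 and 86.8 CPM at the high dose. Medium dose replicate 2 lay below the second control here, and the other 4 medium dose livers lay above all controls.

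CYP3A37 had reads in every DCCO liver. Its level is not compared with that in JQ, since the tables were scaled apart and the labelled embryo days differ. Controls had 16.6, 15.7, 7.18 and 5.86 CPM, medium dose livers 12.5, 17.3, 21.4, 21.0 and 19.7 CPM, and high dose livers 8.91, 10.7, 13.0, 20.4 and 14.8 CPM. The 3 groups overlapped. CYP3A8 had 6.41, 11.1, 2.80 and 5.69 CPM in controls, 11.8, 10.1, 25.0, 10.4 and 19.2 CPM at the medium dose, and 3.07, 9.11, 13.7, 12.1 and 5.08 CPM at the high dose. The groups overlapped here as well. CYP3A29-like ranged over 2.67 to 5.42 CPM in controls, 4.20 to 11.4 CPM at the medium dose and 2.66 to 6.79 CPM at the high dose, and CYP3A24-like over 0.254 to 0.841, 0.564 to 2.30 and 0.177 to 1.40 CPM.

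**Figure D4:**
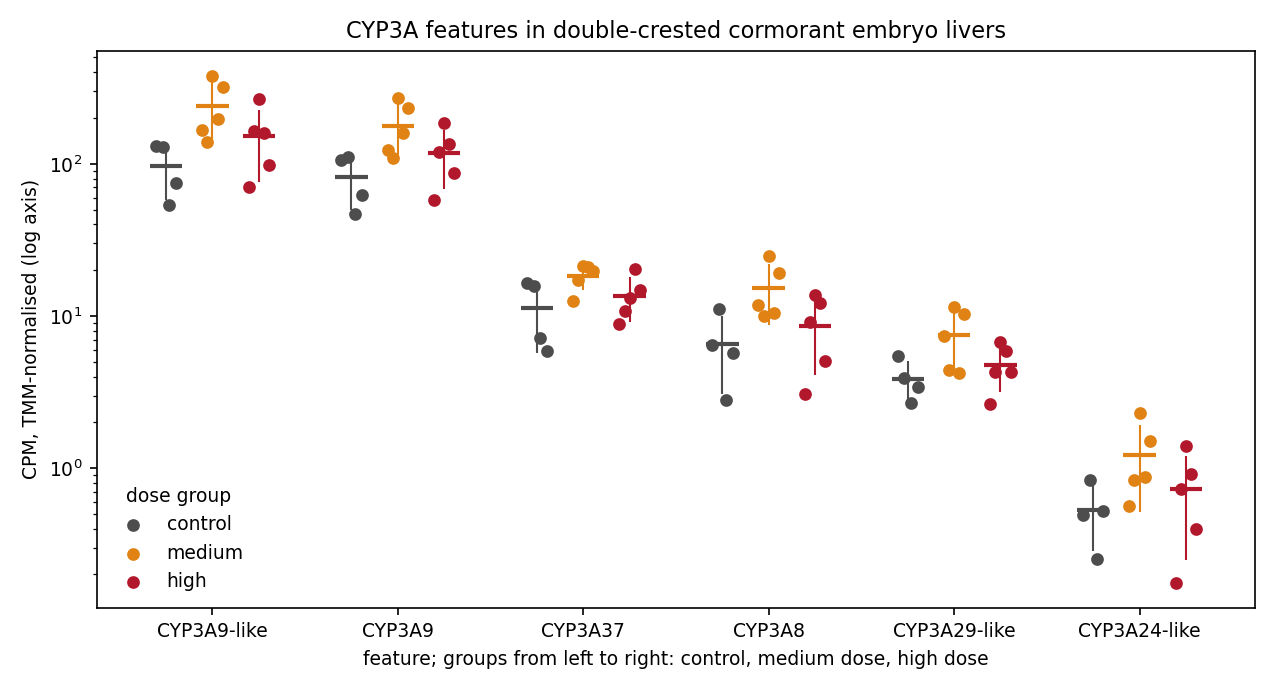
Levels of the 6 tested CYP3A features in each DCCO liver (TMM-normalised CPM, log axis), with control, medium and high dose groups side by side; points are livers, horizontal lines group means and vertical lines 1 SD. The high dose livers overlap with controls in all 6 features, and only for CYP3A9-like does every medium dose liver lie above every control.

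At the high dose the 6 log2 fold changes against DCCO controls lay between 0.26 and 0.65, each with an edgeR adjusted p of 0.9996 and none with an unadjusted p under 0.05. Of all tested features 0.0343% were called in this comparison. CYP3A9-like averaged 152 ± 75.3 CPM at the high dose (SD, n = 5) and 97.0 ± 38.8 CPM in controls (SD, n = 4), a log2 fold change of 0.65 with a 95% interval of -0.17 to 1.46. CYP3A37 changed by 0.26, with an interval of -0.38 to 0.90. In JQ the lower ends of the intervals of these 2 features were 4.61 and 4.78. Among DCCO livers, control replicate 2 had the most SLC34A1, at 265 CPM against 25.2 to 99.4 CPM in the other 13, while the kidney markers CUBN and LRP2, at 10.9 and 6.59 CPM, lay within the range of the others. Without that control CYP3A9-like was at 0.80.

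At the medium dose the 6 log2 fold changes lay between 0.70 and 1.31, with edgeR adjusted p between 0.541 and 0.848, and 0.048% of all tested features were called. All 6 had an unadjusted edgeR p under 0.05, which 5.71% of tested features had, or 2.78% upward as here. None of the 6 was called by edgeR, DESeq2 or limma voom. Whether reads were divided among these similar names was not tested, so the 6 cannot be counted as separate results. CYP3A9-like averaged 241 ± 103 CPM at the medium dose (SD, n = 5) and 97.0 ± 38.8 CPM in controls (SD, n = 4). Its log2 fold change was 1.31 ± 0.39 (SE), and its adjusted p ran between 0.0826 and 0.999999 over the alternatives tried. Its groups did not overlap, which was so for 1.36% of tested features in this direction. High and medium dose were set against the same 4 controls, so the 2 sets of values are not independent. Between the doses, high minus medium lay between -0.83 and -0.44 with an edgeR adjusted p of 0.9996 for each feature, and 0% of all features were called.

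Summed over 13 names, DCCO livers had 267, 273, 114 and 153 CPM in controls, 323, 282, 708, 393 and 607 CPM at the medium dose, and 143, 310, 487, 336 and 211 CPM at the high dose. Each group varied more than 2-fold within itself, between 114 and 273 CPM in controls alone. The makeup was similar in all groups, in that CYP3A9-like held 50.2 ± 3.47% of the CYP3A reads at the high dose and 48.0 ± 1.002% in controls (SD, n = 5 and 4). CYP3A9 held 39.8 ± 1.28% at the high dose and 40.5 ± 0.552% in controls. CYP3A9-like had between 1.13 and 1.43 reads for each CYP3A9 read in all 14 livers. The 7 untested names had 46 reads at the high dose, 87 at the medium dose and 57 in controls, and CYP3A12-like had 16 reads over all DCCO livers.

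The nearest pattern to CYP3A9-like among all tested features over the 14 DCCO livers was that of CYP3A9, at a root mean square difference of 0.15, followed by CYP3A8 at 0.29, CYP3A24-like at 0.39 and CYP3A29-like at 0.44. Only CYP3A37 had its nearest neighbour outside the family, TTLL12 at 0.38, with CYP3A9 at 0.46. CYP3A29-like was nearest to CYP3A9 at 0.36, but lipoprotein lipase followed at 0.37, and CYP3A8 was at rank 39. In the DCCO lists of heme and electron supply, other P450s, conjugation and efflux, and receptors, edgeR called none of 17, 43, 14 and 19 tested members at the high dose. This is near the 0.0343% called over all tested features. At an unadjusted p under 0.05 there were 0, 8, 1 and 1 upward and 0, 1, 0 and 1 downward. Over all tested features 3.30% were upward and 2.03% downward, so that the 8 of 43 other P450s are a larger share. The median log2 fold change of these 43 was -0.036. At the high dose ALAS1 had a log2 fold change of 0.06 and POR of -0.15, with edgeR adjusted p of 0.9996. At the medium dose no list member was called, beside 0.048% of all tested features. There 0, 3, 1 and 3 were upward and 0, 2, 1 and 1 downward at an unadjusted p under 0.05, against 2.78% and 2.93%. The median of the 43 other P450s was -0.007 there.

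**Figure D5:**
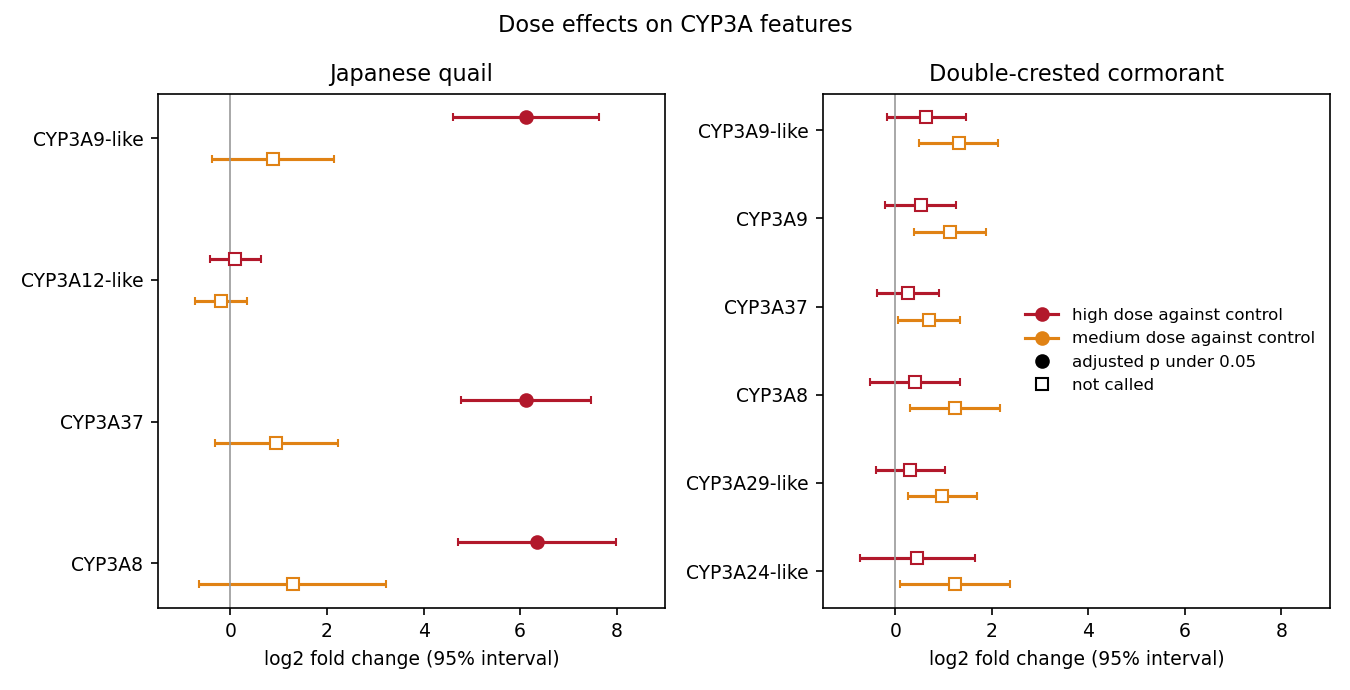
Log2 fold changes of each tested CYP3A feature with 95% intervals, high dose against control in red and medium dose against control in orange, JQ at left and DCCO at right; filled circles mark an adjusted p under 0.05 and open squares the rest. The 3 called JQ values lie above 6, and every DCCO value lies below 1.5.

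The species difference was tested directly as the JQ high dose effect minus the DCCO high dose effect, in 1 fit of all 29 livers over 15596 names present in both tables. Of these names 1.21% were called and 0.757% were called with the larger effect in JQ. CYP3A37 differed by 5.86 ± 0.69 (SE), CYP3A9-like by 5.48 ± 0.78 and CYP3A8 by 5.92 ± 0.90 on the log2 scale. The edgeR adjusted p were 9.50e-06, 0.000191 and 0.000324. For CYP3A37 the species' own fits gave 6.13 in JQ and 0.26 in DCCO.

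The other 4 names were not called in this test, and each was sparse in 1 of the species. CYP3A9 differed by 2.83 with a 95% interval of -0.03 to 5.70, on 34 JQ reads at the high dose and 2 in JQ controls. CYP3A24-like differed by 1.36, CYP3A29-like by 0.63 and CYP3A12-like by -0.13, with edgeR adjusted p of 0.702, 0.855 and 0.999. The species also differed in embryo day, and the high dose was chosen separately for each, so species, age and dose cannot be told apart in these values. In DCCO the prefix of the column names went with exposure and cannot be told apart from it here either. Whether a shared name stands for the same gene in both species was not tested.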

How the data were processed

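RNA of 29 individual livers was sequenced as paired reads of 101 bp, per the labels' protocols. The deposited files hold raw read counts per protein name, 1 table per species, which the table names tie to Seq2Fun with a database of all birds, versions and filters not given in the sources used here. The submitters' processing notes name edgeR without a version.

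The counts were tested as deposited with edgeR 4.0.16 in R 4.3.3. TMM scaling, filterByExpr (minimum count 10, total 15) and the robust quasi-likelihood test were applied to the 3 groups of a species together, with Benjamini-Hochberg adjustment over all tested features and a threshold of 0.05. The species difference came from the same test on all 29 livers over names shared by both tables. Intervals are 95%. CPM means and SDs are over livers. Log2 CPM for likeness used a prior count of 2. A few reads give imprecise values, and untested names are given as reads.

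Members were all names that begin with cytochrome P450 3A. Any name that writes CYP3A in another form was not counted among the members or in their sum. From each of the 4 lists, the 4 members with the smallest p at the high dose in JQ were named, and for likeness the 5 nearest features of each tested CYP3A feature. In JQ, 1 of these neighbours is not reported here. Of the DCCO neighbours only a few are named. NR1I3, AHR, HMOX1 and the DCCO neighbours were named after their values were seen. The members and lists were chosen with earlier results of these data known. Other genes of these lists with no matching name were not analysed here.

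JQ columns carry the letters H, M and S with a number, and S was taken as the solvent control because it is the letter left over. One DCCO control column could not be tied to a replicate number. The labels do not name the parents or batches of the embryos, so p-values measure the spread between these livers. Alternatives were other size factors, no filter, DESeq2 1.42.0, limma 3.58.1 with voom, a replicate block, a fit of only the groups compared, a minimum fold of 1.5, CPM of the library total and leaving out each library. On simulated counts the test recovered 72.7% of planted 2-fold and 95.5% of 4-fold changes in JQ, and 67.6% and 95.8% in DCCO. Changes were planted only in features above a minimum mean level, 105 of 2-fold and 95 of 4-fold in DCCO. The real DCCO comparisons with control called 5 and 7 features, so these shares do not carry over to the CYP3A features of DCCO. They do not carry over to the JQ medium dose either, since changes were planted in the high dose group only. At the JQ medium dose the log2 fold changes of CYP3A9-like, CYP3A37 and CYP3A8 had an SE of 0.59, 0.60 and 0.91.

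The replicate numbers were not taken to pair the livers, since in no comparison did the deviations of every same-numbered pair correlate above 0.1, and the fit without a block was kept. The correlations lay between -0.12 and 0.15 over the JQ comparisons. In DCCO they were 0.0098 to 0.385 for high dose and control, -0.12 to 0.0865 for medium dose and control, and 0.0886 to 0.317, all above 0, for high and medium dose.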

Additional observations from a re-analysis of the deposited data

Results flagged for a closer look

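In a test for a single sample far from its group, made in 36 groups of 4 or 5 livers, 2 livers stood out, and chance gives about 1 such group in 20. CYP3A12-like had 162.6 CPM in JQ high dose replicate 1, against 98.4 CPM in the next high dose liver. This is the library whose kidney markers summed to 1997 CPM. CYP3A37 had 3.84 CPM in JQ control replicate 5, against 1.51 CPM in the next control. This is the control labelled day 16. What part the kidney markers or the labelled day had in these values was not tested.

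The high dose effect differed between the species, by the direct test of the difference, for 3 features. JQ minus DCCO was 5.86 for CYP3A37, 5.92 for CYP3A8 and 5.48 for CYP3A9-like on the log2 scale, with edgeR adjusted p of 9.50e-06, 0.000324 and 0.000191. Of all names in this test 1.21% were called, and 0.757% were called with the larger effect in JQ. All 5 JQ high dose livers were above every JQ control for each of the 3 features, as for 2.7% of all tested JQ features. CYP3A8 had only 0 to 8 reads in each JQ control. Species, embryo day, the chosen high dose and the DCCO column prefix cannot be told apart here.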

How the results depend on the processing

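The number of CYP3A features called was 3 in JQ high dose against control, in JQ high against medium dose and in the species difference under every alternative, except 4 in the first without a filter, and 0 in the other comparisons. Leaving out each library gave 3 to 3 and 0 to 0. For the called features at the JQ high dose, log2 fold changes over those omissions ran 5.93 to 6.55 for CYP3A9-like, 5.93 to 6.67 for CYP3A37 and 6.06 to 6.90 for CYP3A8. Values of features that were not called turned their sign in 6 cases. CYP3A12-like in JQ was -0.12 without high dose replicate 1 (-0.12 to 0.25 over all omissions). Its species difference, -0.46 to 0.66 over all omissions, was 0.02 without JQ control replicate 5, 0.66 without DCCO high dose replicate 4 and 0.19 without the unnumbered DCCO control.

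With a replicate block, which the data do not show to pair the livers (2 of 5 JQ and 2 of 3 DCCO high dose livers correlated best with the control of their own number), 3 CYP3A features stayed called in JQ. CYP3A37 in DCCO high dose was -0.19 and the CYP3A12-like species difference 0.55. The unnumbered DCCO control then informs no comparison. Features called became 416 against 531 in JQ high against control, 187 against 282 in JQ high against medium, 2 and 1 against 5 and 7 in DCCO high and medium dose.

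Counts over all features moved more. DESeq2 called 974, 6 and 614 in JQ high against control, medium against control and high against medium, and 62, 54 and 4 in DCCO. A minimum fold of 1.5 left 103 and 64 in JQ high against control and high against medium, and 2 and 0 in DCCO high and medium dose. Fits of only 2 groups gave 128 in JQ high against medium and 2 in DCCO high dose, and no filter gave 3 there. Leaving out each library gave 303 to 659 in JQ high against control (303, 347, 309 and 340 without control 1, 2, 4 and high 5), 166 to 391 in JQ high against medium (180 without high 3, and 174, 168, 166 and 181 without medium 2, 3, 4 and 5) and 0 to 0 in JQ medium. In DCCO it gave 2 to 14 at the high dose, 6 to 16 at the medium dose and 0 to 1 between the doses. At the high dose it was 14 without control 1, 8 without high 1, 2 without high 2, 3 or 4, medium 1, 2, 3 or 4, or control 3, and 3 without medium 5 or the unnumbered control. At the medium dose it was 16 without high 1, and between the doses 1 without control 3. At the high dose it was 16 without both control 1 and high 1, which share a column number and were left out together after seeing the data. The cause was not tested.

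FOXA2 and CEBPA lost their call without a filter, with 2 groups, with a 1.5-fold minimum and without both JQ control 5 and high 1. POR lost its call with the 1.5-fold minimum, ABCB1 in 1 of 8 settings other than leaving out each library and TMEM139 with limma voom. NR1H4 was called by DESeq2 and without high 2 (edgeR adjusted p 0.0408), and HNF4A by DESeq2, with the replicate block and without high 5 (edgeR adjusted p 0.0369). Few reads limit CYP3A8, TMEM139 and CYP2C23B in JQ controls and all untested names.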
